A study of Mus musculus with 16 samples.

Results

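The genes described here are Phlda1, Lor, Vgf, Btbd17, Grm6, Esam, Trf, Insc, Baalc and Cyth4, 10 of the 15660 genes tested in a time course of Erk stimulation in mouse embryonic stem cells. They were chosen by their log2 changes from the uninduced level at late times in these same data. Their levels at 4h, 8h and 24h, against 0h, DMSO or each other, are therefore given as a description, with no test. The cells were E14tg2a, a mouse embryonic stem cell line, with a constitutively active c-Raf fusion under the control of tamoxifen. All of them grew on gelatin in serum with LIF. The DMSO group received vehicle alone. The 0h group had 24 h of 250 nM PD173074, an inhibitor of FGF receptors, and no induction. In the 30m, 1h, 2h, 4h, 8h and 24h groups 250 nM 4OHT (4-hydroxytamoxifen) followed for the named time, after the same pretreatment with the inhibitor. Each of the 8 groups has 2 arrays, and no label says whether these were separate cultures. The p-values then rest only on the spread between the 2 arrays of a group, pooled over the 8 groups, which may be technical. Cells that lacked the fusion but saw 4OHT were not analysed here, so an effect of 4OHT itself cannot be told apart from that of the fusion. The single 0h group is the uninduced reference at every time. Further time in culture can therefore not be told apart from induction either.

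c-Raf is the kinase that phosphorylates MEK, which in turn phosphorylates and activates Erk. In mouse embryonic stem cells this cascade is fed mainly by FGF receptors, and Erk activity moves the cells away from self-renewal. Immediate early genes answer Erk without new protein synthesis, and later targets follow through the factors these encode. The 10 genes belong to no common family. Phlda1 encodes a protein with a pleckstrin homology-like domain. Lor encodes loricrin, the main protein of the cornified envelope of skin, and Vgf encodes a secreted neuropeptide precursor. Grm6 is a glutamate receptor known from retinal bipolar cells, Esam an adhesion molecule of endothelial junctions, Trf the iron carrier transferrin of blood plasma, and Insc an adaptor that orients the mitotic spindle. Baalc is known from human brain and leukaemia, Cyth4 is an exchange factor for Arf GTPases, and Btbd17 encodes a BTB-domain protein.

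RNA was hybridised in 1 colour, and each gene was read from its brightest probe, as the log2 processed signal relative to the array's 75th percentile. A level of 0 thus equals that percentile, and levels are set only against the same probe. The share of spots well above background was 54.9% to 67.2% per array. The labelled cell type was checked against 10 pluripotency markers, all of which were well above background on all 16 arrays. Many markers of other cell types, given below, were so too, and detection alone thus does not identify the cells. For 8 of the 16 arrays the value table and the scanner files name different samples. The value table's headings were used, under which each of the 2 slides holds 1 replicate of all 8 groups. With the arrays as attached to the scanner files the time course described below is not seen: the median change of the 8 members then tested was 0.49 at 24h against 0h, in place of 5.43 for the 10, and 0 members were called in the 5 comparisons tested here. All 10 passed the detection filter (1 or more groups with both arrays well above background), though Baalc passed through 8h and 24h alone. The probes carry the RefSeq accessions NM_009344 (Phlda1), NM_008508 (Lor), NM_001039385 (Vgf), NM_028055 (Btbd17), NM_173372 (Grm6), NM_027102 (Esam), NM_133977 (Trf), NM_173767 (Insc), NM_080640 (Baalc) and NM_028195 (Cyth4).

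The order of appearance separated 3 early genes from 6 later ones. A gene's onset was taken as the first time from which its mean stayed at least 1 log2 unit above 0h, with both arrays above both 0h arrays. Onset was at 2h for Phlda1, Lor and Vgf, and at 4h for Btbd17, Grm6, Esam, Trf, Insc and Baalc. Of all genes tested, 0.370% had their onset at 2h and 1.16% at 4h. Cyth4 met the rule only at 24h (4.78% of genes), because it stood high at 4h and low again at 8h. After normexp background correction, which compresses low signals, onset moved to 8h for Grm6, Insc and Baalc, and Cyth4 had none. The 4h onset of Baalc rests on signals below background on both 0h arrays and on 1 of 2 at 4h, and without 1 array the 4h change was as low as 0.80 for Baalc and 0.78 for Insc, under the limit of 1 log2 unit.

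**Figure D1:**
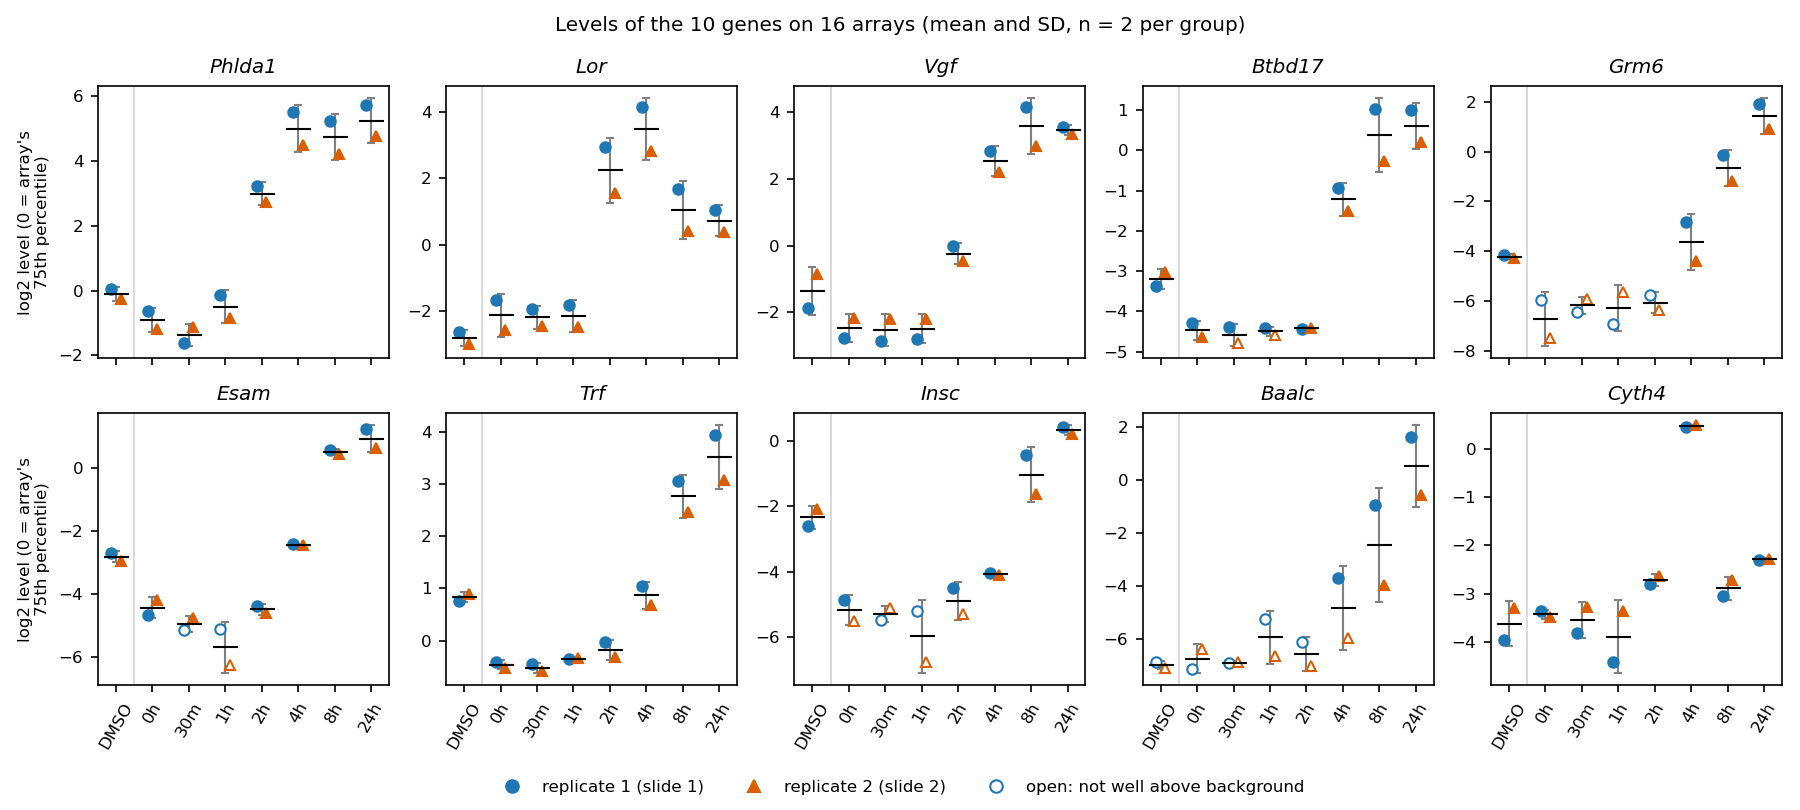
Level of each gene on every array (y axis, log2, 0 is the array's 75th percentile) in the 8 groups (x axis). Circles are replicate 1 on slide 1, triangles replicate 2 on slide 2, open symbols are not well above background, and bars are mean and SD (n = 2). Phlda1, Lor and Vgf stand above 0h from 2h, 6 genes from 4h, and Cyth4 has a single peak at 4h.

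A level sustained to 24h was seen for 8 of the 10 genes. The highest group was 24h for 7 of them (Phlda1, Btbd17, Grm6, Esam, Trf, Insc and Baalc) and 8h for Vgf, whose 24h mean was 0.12 lower. Lor and Cyth4 were highest at 4h, and at 24h each stood 2.76 log2 units below that peak. Over the 10 genes the median change from 0h was 3.18 at 4h, 4.57 at 8h and 5.43 at 24h, beside 0.01, -0.04 and -0.01 for all genes tested. With Grm6 and Baalc, dim at 0h, at their bounds the members' medians were 2.63, 4.34 and 5.43, and with normexp they were 1.53, 2.85 and 3.74. By gene, the 24h change with normexp was 4.59 for Grm6, 5.19 for Vgf, 3.72 for Baalc, 3.76 for Esam, 3.42 for Insc and 0.75 for Cyth4. Between 8h and 24h the means of Grm6, Baalc and Insc still differed by 2.09 ± 0.68, 2.98 ± 1.06 and 1.36 ± 0.53. Both 24h arrays lay above both 8h arrays for 6 of the 10 genes, as for 25.4% of all genes tested. Late rises chose the genes, so nothing is read from this count.

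**Figure D2:**
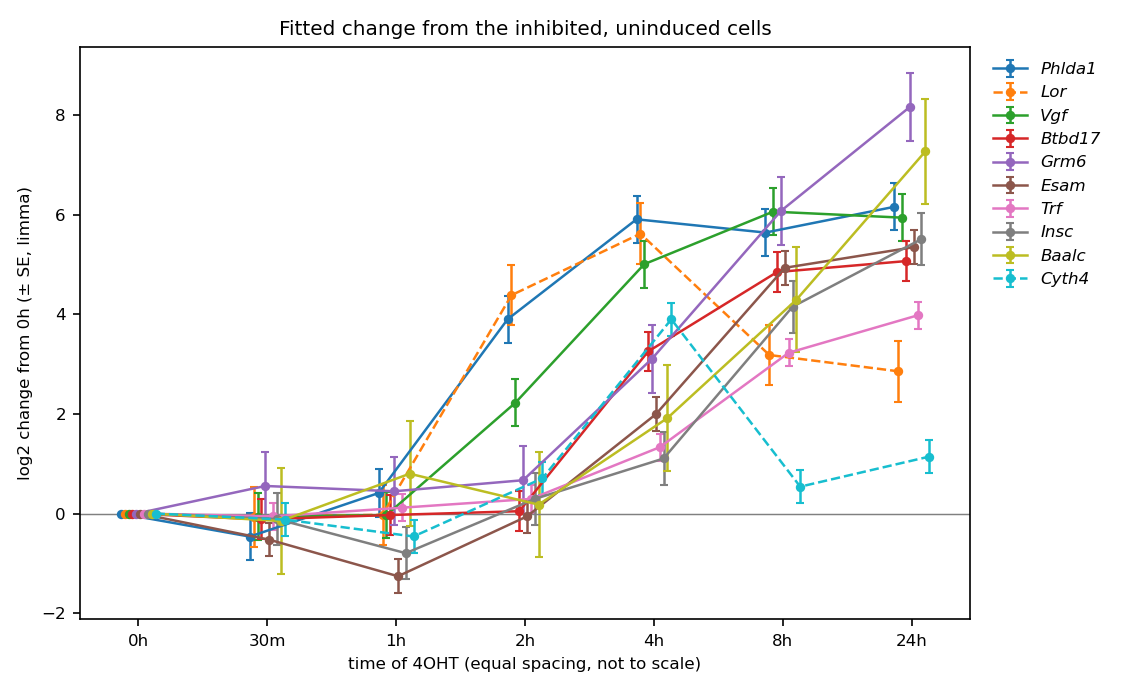
Fitted log2 change from 0h (y axis, limma, ± SE) over the times of 4OHT (x axis, equally spaced and not to scale) for the 10 genes. Dashed lines mark Lor and Cyth4, which peaked at 4h. The points of Grm6 and Baalc rest on 0h arrays not well above background, so their heights are not bounds.

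Phlda1, first described as a gene of dying T cells, stood high early and stayed there. Levels were 0.04 and -0.25 in DMSO, -0.64 and -1.18 at 0h, -1.61 and -1.13 at 30m, and -0.14 and -0.85 at 1h. From 2h they stood at 3.24 and 2.75, then 5.52 and 4.49 at 4h, 5.24 and 4.23 at 8h, and 5.74 and 4.77 at 24h. All arrays from 2h on lay above all earlier ones, and those of 4h, 8h and 24h overlapped. Against 0h the gene was 60.1-fold higher at 4h (5.91 ± 0.47 on the log2 scale, ± SE as in all changes below), higher by 5.64 ± 0.47 at 8h and 71.5-fold higher at 24h. At 24h it was 41.0-fold above DMSO. Its relatives Phlda2 and Phlda3, which share the domain, were not called at 2h or 24h against 0h or at 0h against DMSO (limma, 0 of 2 also at an unadjusted p under 0.05). At 4h against 0h 0 of these 2 were called, but with the replicate block 1 was higher and 1 lower.

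Lor had an early and partly transient course. The 2 arrays of each group read -2.65 and -3.0 in DMSO, -1.68 and -2.59 at 0h, -1.96 and -2.45 at 30m, and -1.82 and -2.50 at 1h. They stood at 2.94 and 1.56 at 2h, 4.14 and 2.82 at 4h, 1.67 and 0.42 at 8h, and 1.05 and 0.39 at 24h. Every array from 2h on lay above every earlier one, and on each slide the level was highest at 4h and lower at 8h and 24h. Against 0h Lor was 49.2-fold higher at 4h (5.62 ± 0.61), 9.09-fold at 8h (3.18 ± 0.61) and 7.25-fold at 24h (2.86 ± 0.61). It was 5.41-fold lower at 8h than at 4h (-2.44 ± 0.61).

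The bases before the start of Lor are shown because it is 1 of 2 members whose window held a searched motif. Windows of 250 bases up to the start site, from RefSeq (GRCm38.p6), were used for 5 of the 10 genes. Both strands were searched for AP-1 (TGANTCA), CRE (TGACGTCA), ETS (CCGGAAGT), EGR (GCGNGGGCG), the CArG box and the TATA box (TATAAA). The Lor window lies at chr3:92083143-92083392 on the minus strand, and its capitals mark an AP-1 match that begins 48 bases and a TATA match that begins 27 bases before the start:

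Lor: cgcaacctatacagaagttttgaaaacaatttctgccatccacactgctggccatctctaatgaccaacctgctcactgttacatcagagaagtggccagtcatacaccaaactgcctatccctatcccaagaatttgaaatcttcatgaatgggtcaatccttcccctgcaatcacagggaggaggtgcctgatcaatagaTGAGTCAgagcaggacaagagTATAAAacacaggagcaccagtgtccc

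Of all 32851 windows of this length, 6.75% held the AP-1 letters and 12.4% the TATA letters. The Insc window at chr7:114745516-114745765 on the plus strand held an EGR match on its minus strand, 157 bases before the start (capitals), as did 4.70% of windows:

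Insc: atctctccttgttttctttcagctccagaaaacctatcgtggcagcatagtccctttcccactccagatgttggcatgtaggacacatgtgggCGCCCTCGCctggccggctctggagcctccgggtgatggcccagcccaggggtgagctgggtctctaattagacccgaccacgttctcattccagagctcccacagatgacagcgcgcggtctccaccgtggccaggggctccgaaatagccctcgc

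The windows of Grm6, Btbd17 and Cyth4 held none of these letter strings. These matches describe the windows only.

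Other genes of the cornified envelope did not follow Lor as a group. Of 22 listed, 9 could be tested, and at 2h against 0h 0 were called (limma; at an unadjusted p under 0.05, 0 higher and 1 lower; also 0 with the replicate block). At 4h against 0h, where Lor peaked, 0 were called higher and 1 lower (1 and 1 with the block). That gene was Evpl, which fell by 1.21 ± 0.19 (adjusted p = 0.016). Of all 15660 genes 233 were called higher and 266 lower at 4h. At 24h against 0h, where 10.8% of all genes were called higher and 12.9% lower, 3 rose and 1 fell (4 and 1 with the block). Ppl, the crosslinked protein periplakin, rose by 3.15 ± 0.57 (adjusted p = 0.00327), Cstb rose by 0.84 ± 0.21 (adjusted p = 0.0158), and Tgm1, the crosslinking enzyme transglutaminase, fell by 1.57 ± 0.35 (adjusted p = 0.00935). Of 8 keratinocyte markers, Ivl was above background on 0 arrays, Krt1 and Dsg3 on 1 and Dsc3 on 2, and Krt10, Krt5, Krt14 and Trp63 on all 16. Krt5, a basal keratin, rose by 3.78 ± 0.39 at 24h over 0h (adjusted p = 0.000201). Their summed level, in units of the 75th percentile, was 4.55 to 5.82 at 24h and 2.92 to 3.53 at 0h, but 3.24 to 3.63 at 4h, where Lor peaked.

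Vgf, named for its induction by nerve growth factor, stood apart at 2h and high from 4h on. Levels were -1.88 and -0.85 in DMSO, -2.78 and -2.17 at 0h, -2.88 and -2.20 at 30m, and -2.81 and -2.20 at 1h. They stood at -0.03 and -0.47 at 2h, 2.85 and 2.22 at 4h, 4.18 and 3.0 at 8h, and 3.57 and 3.36 at 24h. The 2h arrays lay above all earlier arrays, DMSO included, and the 8h and 24h arrays overlapped. Against 0h Vgf was 32.2-fold higher at 4h (5.01 ± 0.47), 66.9-fold at 8h (6.06 ± 0.47) and 61.5-fold at 24h (5.94 ± 0.47). It was 28.5-fold above DMSO at 24h.

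Genes that make or process granins and neuropeptides, the class to which Vgf belongs, went both ways at 24h, with 3 of 9 tested rising and 3 falling (4 and 4 with the block). Cpe, carboxypeptidase E, rose by 2.73 ± 0.21 (adjusted p = 5.11e-05) and Pam, the amidating enzyme, rose by 1.23 ± 0.23 (adjusted p = 0.00387). Pcsk1, the prohormone convertase, fell by 2.03 ± 0.56 (adjusted p = 0.0253). At 0h against DMSO Chga, chromogranin A, rose by 0.89 ± 0.12 (adjusted p = 0.00529). Of 10 neural markers Dcx was above background on 0 arrays and the other 9 on all 16, and their summed level was 24.8 to 32.9 at 24h, against 44.4 to 47.5 at 0h.

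Btbd17 and Grm6 first stood out at 4h. Btbd17 levels were -3.36 and -3.02 in DMSO and between -4.78 and -4.30 from 0h to 2h. They then stood at -0.92 and -1.50 at 4h, 1.03 and -0.26 at 8h, and 1.0 and 0.20 at 24h. The level was flat and lowest from 0h to 2h, and the 8h and 24h arrays overlapped. Against 0h the gene was 9.55-fold higher at 4h (3.26 ± 0.40), 28.8-fold at 8h (4.85 ± 0.40) and 33.6-fold at 24h (5.07 ± 0.40). With normexp these changes were 1.84, 3.20 and 3.36. The replicate 2 arrays at 30m and 1h were not well above background. Of 9 other Btbd genes tested at 24h (1 higher and 1 lower, or 2 and 2 with the block), Btbd1 rose by 0.45 ± 0.13 (adjusted p = 0.0314) and Btbd11 fell by 1.22 ± 0.35 (adjusted p = 0.0291).

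Grm6 was not well above background on any of the 8 arrays from 0h to 2h. Levels were -4.14 and -4.30 in DMSO, and between -7.50 and -5.63 on those 8. They stood at -2.84 and -4.42 at 4h, -0.15 and -1.17 at 8h, and 1.93 and 0.92 at 24h. The 3 late groups did not overlap each other, while 4h overlapped DMSO. A probe below background gives only a bound, from the lowest signal well above background on those arrays. On the processed signal Grm6 was at least 2.94-fold higher at 4h than at 0h, at least 23.0-fold at 8h and at least 97.8-fold at 24h. With normexp the log2 changes from 0h were 0.94, 2.69 and 4.59, which lie below these bounds. Against DMSO, where the probe was well above background, it was 50.1-fold higher at 24h (5.65 ± 0.68). None of the 4 other metabotropic glutamate receptor genes tested was called at 24h, at 2h or at 0h (limma, 0 also at an unadjusted p under 0.05 and with the replicate block).

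Esam and Trf had a graded course, with each late group above the one before. Esam levels were -2.70 and -2.95 in DMSO, -4.67 and -4.21 at 0h, -5.14 and -4.78 at 30m, -5.12 and -6.26 at 1h, and -4.38 and -4.61 at 2h. They stood at -2.43 and -2.45 at 4h, 0.56 and 0.43 at 8h, and 1.22 and 0.61 at 24h. The 4h arrays stood just above those of DMSO, and 24h above 8h. Against 0h Esam was 3.99-fold higher at 4h (2.00 ± 0.34), 30.6-fold at 8h (4.94 ± 0.34) and 40.8-fold at 24h (5.35 ± 0.34), and at 24h it was 13.4-fold above DMSO. Of 6 other junctional adhesion genes tested, 0 rose and 2 fell at 24h (1 and 2 with the block; 0 and 2 at an unadjusted p under 0.05, limma). Jam2 fell by 3.65 ± 0.53 at 24h (adjusted p = 0.00113) and Jam3 fell by 0.58 ± 0.13 (adjusted p = 0.00987), while Jam3 rose by 0.64 ± 0.13 at 0h against DMSO (adjusted p = 0.0308). Of 8 endothelial markers Cdh5, Emcn and Erg were above background on 0 of 16 arrays, Tie1 on 9, and Pecam1, Tek, Vwf and Kdr on all 16, and the summed level was 10.7 to 10.8 at 24h against 12.3 to 12.6 at 0h.

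Trf levels were 0.76 and 0.90 in DMSO, -0.41 and -0.53 at 0h, -0.46 and -0.59 at 30m, -0.36 and -0.34 at 1h, and -0.04 and -0.31 at 2h. They stood at 1.05 and 0.68 at 4h, 3.05 and 2.47 at 8h, and 3.95 and 3.08 at 24h. The 4h arrays overlapped DMSO, and both later groups lay above it. Against 0h Trf was 2.52-fold higher at 4h (1.33 ± 0.27), 9.38-fold at 8h (3.23 ± 0.27) and 15.8-fold at 24h (3.98 ± 0.27). A second Trf probe gave changes of 1.55, 3.54 and 4.34 at these times. Of 12 other genes of iron transport and storage tested at 24h, 3 rose and 1 fell (4 and 3 with the block). Steap2, a metalloreductase, rose by 2.38 ± 0.51 (adjusted p = 0.00746), Slc40a1, the iron exporter ferroportin, by 2.20 ± 0.56 (adjusted p = 0.0176) and Tfr2, a transferrin receptor, by 1.5 ± 0.17 (adjusted p = 0.000286). Of 8 hepatocyte markers Alb, Ttr and Apoa1 were above background on 0 arrays, Afp on 1, Apob on 3, and Apoa2, Serpina1a and Fga on all 16, and they summed to 3.78 to 5.03 at 24h against 3.29 to 4.48 at 0h.

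Insc and Baalc were still low at 4h. Insc levels were -2.58 and -2.08 in DMSO, -4.86 and -5.50 at 0h, -5.46 and -5.11 at 30m, -5.19 and -6.76 at 1h, and -4.48 and -5.29 at 2h. They stood at -4.04 and -4.11 at 4h, -0.42 and -1.63 at 8h, and 0.44 and 0.22 at 24h. At 4h both arrays were still below both DMSO arrays. The probe was well above background on 1 of 2 arrays at 0h and 2h, and on none at 30m and 1h. Against 0h Insc was 2.15-fold higher at 4h (1.11 ± 0.53), 17.8-fold at 8h (4.15 ± 0.53) and 45.6-fold at 24h (5.51 ± 0.53), and at 24h it was 6.35-fold above DMSO. Its 14 tested partners in spindle orientation were called lower in 3 cases at 24h and higher in 0 (4 and 2 with the block; 4 and 1 at an unadjusted p under 0.05). Gnai1, a G protein subunit, fell by 1.1 ± 0.20 (adjusted p = 0.00366), Gpsm2, the adaptor LGN, by 0.81 ± 0.13 (adjusted p = 0.00188) and Gnai2 by 0.56 ± 0.17 (adjusted p = 0.0359). At 0h against DMSO Gpsm2 rose by 0.63 ± 0.13 (adjusted p = 0.0303).

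Baalc was below background on all 10 arrays up to 2h, with levels between -7.12 and -5.23, and on 1 of 2 arrays at 4h. Levels were -3.70 and -5.94 at 4h, -0.93 and -3.96 at 8h, and 1.63 and -0.57 at 24h. These replicates differed by over 2 log2 units at each late time, and the 4h and 8h arrays overlapped. On the processed signal Baalc was at least 6.67-fold higher at 8h and at least 52.5-fold higher at 24h than at 0h. At 24h it was at least 44.0-fold above DMSO. With normexp these 3 log2 changes were 1.55, 3.72 and 3.42, which lie below the bounds.

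Cyth4 showed a single peak. Levels were -3.96 and -3.29 in DMSO, -3.37 and -3.50 at 0h, -3.82 and -3.29 at 30m, -4.42 and -3.36 at 1h, and -2.81 and -2.64 at 2h. They stood at 0.45 and 0.48 at 4h, -3.06 and -2.72 at 8h, and -2.30 and -2.28 at 24h. Both 4h arrays lay over 2 log2 units above every other array. Cyth4 was 14.9-fold higher at 4h than at 0h (3.90 ± 0.33) and 10.3-fold lower at 8h than at 4h (-3.36 ± 0.33). At 24h it stood 2.21-fold above 0h (1.14 ± 0.33). Of 9 other cytohesin and Arf genes tested at 24h 1 was called (1 higher and 1 lower with the block): Cyth1 fell by 0.97 ± 0.16 (adjusted p = 0.00194). At 4h against 0h, where Cyth4 peaked, 0 of these 9 were called (limma, 2 higher and 0 lower with the block). Of 8 blood markers Spi1 was above background on 1 array, Tal1 on 15 and the other 6 on all 16, and the sum was 7.87 to 11.1 at 4h against 8.07 to 10.3 at 0h.

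The comparison of 0h with DMSO asks what 24 h of the FGF receptor inhibitor did. Its 0h arrays also entered the choice of the genes, which favours genes low on them, so the calls and counts below are not independent of that choice. Of the 10 genes 3 fell, and 1.28% of all genes tested were called lower. Insc fell by 2.84 ± 0.53 (7.18-fold, limma adjusted p = 0.0208), Esam by 1.61 ± 0.34 (3.05-fold, adjusted p = 0.0325) and Trf by 1.3 ± 0.27 (2.46-fold, adjusted p = 0.0329). With the replicate number as a block these had adjusted p = 0.00443, 0.0116 and 0.00502. Grm6 (at least 1.95-fold lower, adjusted p = 0.0767) and Btbd17 (-1.28 ± 0.40, adjusted p = 0.121) passed in the blocked fit alone (adjusted p = 0.0275 and 0.0274), which called 6.69% of all genes lower. Vgf stood at -1.11 ± 0.47, Phlda1 at -0.80 ± 0.47, Lor at 0.69 ± 0.61, Cyth4 at 0.19 ± 0.33 and Baalc was below background in both groups; these were called in neither fit. Both 0h arrays lay below both DMSO arrays for 7 genes (Insc, Esam, Trf, Grm6, Btbd17, Vgf and Phlda1), as for 23.7% of all genes tested, and nothing is read from that difference.

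These inhibitor calls are narrow. Leaving out any 1 of the 4 arrays ended all 3: the adjusted p lay between 0.0775 and 0.141 for Insc, 0.1 and 0.199 for Esam, and 0.132 and 0.177 for Trf, while their changes stayed between -3.17 and -2.52, -1.84 and -1.38, and -1.37 and -1.23. With normexp all 3 stayed called, but the sizes depend on the background method. At 24h Insc then stood 3.42 above 0h and 2.02 above DMSO, and Esam 3.76 and 2.95. Both genes thus fell by less at 0h with normexp than stated above. The Insc probe was well above background on only 1 of the 2 arrays at 0h. Median scaling called Insc alone, and a fit of these 2 groups alone called 0. The same arrays enter every change from 0h above, so those changes were larger than the changes from DMSO for the 7 genes named. At 24h all 10 genes had both arrays above both DMSO arrays (24.7% of all genes tested), and the median change from DMSO was 3.77, beside -0.03 for all genes. The choice of the genes by their late rises favours high 24h arrays, so nothing is read from that count.

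**Figure D3:**
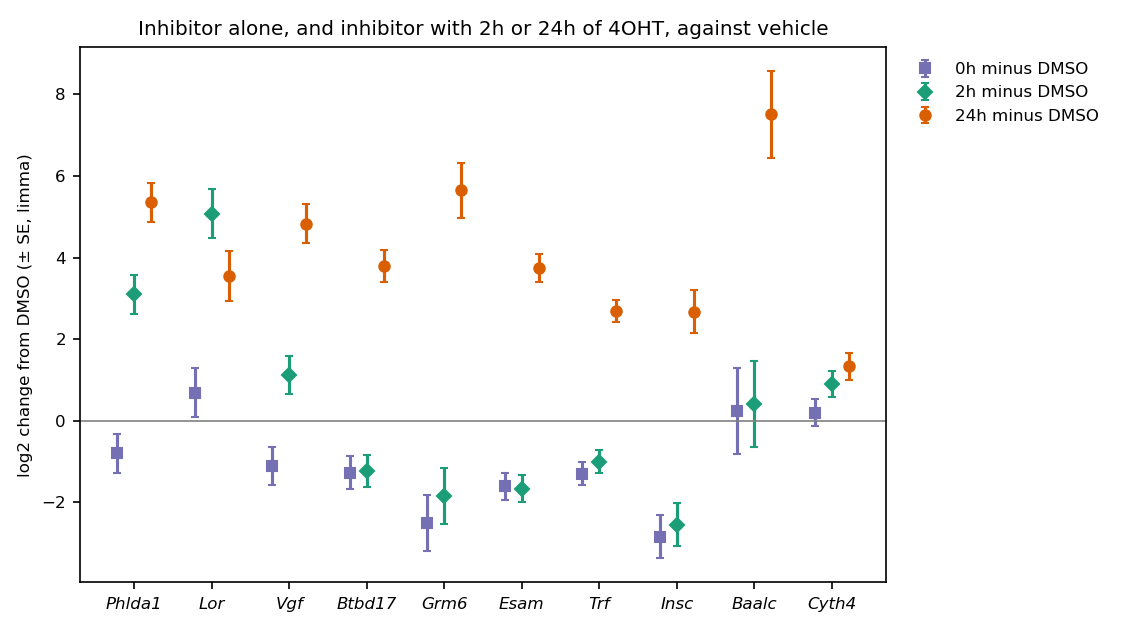
Fitted log2 change from DMSO (y axis, limma, ± SE) of the 10 genes (x axis) at 0h (squares), 2h (diamonds) and 24h (circles). Insc, Esam, Trf, Grm6 and Btbd17 lie below DMSO at 0h and at 2h and above it at 24h, while Phlda1 and Lor are above it by 2h. Values of Grm6 and Baalc at 0h and 2h come from arrays not well above background.

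In the first hour of 4OHT none of the 10 genes was called (limma, 0 of 10 at 30m and at 1h, 0 with the replicate block). No gene of all tested was called at these times either (0.0%), and 96 and 345 genes had an unadjusted p under 0.05, of which 0 and 1 were members. That one was Esam at 1h, where neither array was well above background, which makes it at least 1.21-fold lower than at 0h (adjusted p = 0.784).

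At 2h Lor and Phlda1 rose over 0h, while 0.102% of all genes tested were called higher. The same 0h arrays entered the choice of the genes, so nothing is read from the count of 2 of 10. Lor rose by 4.39 ± 0.61 (20.9-fold, limma adjusted p = 0.0293, 0.000122 with the replicate block), and by 4.62 and 4.15 within the 2 slides. The block called 0.377% of all genes higher. Phlda1 rose by 3.90 ± 0.47 (15.0-fold, adjusted p = 0.0184, 0.00107 with the block), and by 3.88 and 3.93 within the slides. Vgf stood at 2.23 ± 0.47 and was not called (adjusted p = 0.242, 0.102 with the block), and the other 7 lay between -0.06 and 0.71. Both calls were lost without 0h replicate 1, 0h replicate 2 or 2h replicate 1 (adjusted p up to 0.204 for Lor and 0.124 for Phlda1) and were kept without 2h replicate 2. Median scaling shifted all genes by -0.14 at this time and also ended both calls, at changes of 4.25 and 3.76.

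Set against DMSO, on arrays that enter no late comparison with 0h, the 10 genes split at 2h. The spread behind these tests is still pooled over all 8 groups, those that chose the genes included. Lor rose by 5.07 ± 0.61 (33.7-fold, limma adjusted p = 0.00325) and Phlda1 by 3.10 ± 0.47 (8.56-fold, adjusted p = 0.00773), where 2.45% of all genes were called higher. Esam was lower by 1.67 ± 0.34 (3.17-fold, adjusted p = 0.0232) and Insc by 2.55 ± 0.53 (5.86-fold, adjusted p = 0.0247), where 2.10% were called lower. This comparison spans 24 h of inhibitor as well as 2h of 4OHT, and both genes were already low at 0h. Mean levels at 2h and 0h were -4.49 and -4.44 for Esam, and -4.88 and -5.18 for Insc. These 2 calls are therefore not read as a fall under 4OHT. With the block Cyth4 (0.90 ± 0.33, adjusted p = 0.0398), Btbd17 (-1.23 ± 0.40, adjusted p = 0.0295) and Trf (-1.0 ± 0.27, adjusted p = 0.0136) were called too, against adjusted p = 0.160, 0.116 and 0.0706 without it; the block called 9.44% of all genes higher and 7.80% lower. Lor stayed called when any 1 array was left out (adjusted p up to 0.0307). Phlda1 was lost without DMSO replicate 1 or 2h replicate 1 (up to 0.0612), and Esam and Insc were lost without any 1 of the 4 arrays (up to 0.156 and 0.148).

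Known Erk targets are given for reference. Of 20 feedback and immediate early genes 3 fell at 0h against DMSO (9 with the block), led by Spry4, a feedback inhibitor, by 3.39 ± 0.38 (adjusted p = 0.00328). At 2h 5 of 20 rose over 0h (9 with the block), with Egr1 rising by 5.38 ± 0.57 (adjusted p = 0.00787). At 24h 16 of 20 rose (18 with the block), with Dusp4, an Erk phosphatase, rising by 5.67 ± 0.71 (adjusted p = 0.000501). The 9 families of the members, with 74 genes tested, had 3 genes higher and 0 lower at 0h against DMSO (5 and 2 with the block, 7 and 2 at an unadjusted p under 0.05), 0 called at 2h over 0h (limma; 4 higher and 3 lower at an unadjusted p under 0.05, 0 with the block), and 10 higher and 12 lower at 24h (18 and 17 with the block).

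Within the late groups the 2 replicates differed in the same direction for 9 of the 10 genes. At 4h, 8h and 24h all but Cyth4 were higher in replicate 1, where 55.7%, 54.0% and 56.4% of all genes tested were. The median difference was 0.60, 1.1 and 0.73 for the members and 0.06, 0.05 and 0.06 for all genes. Nanog, a factor of self-renewal, stood at 2.36 and 3.47 at 8h and at -1.76 and 1.57 at 24h in replicates 1 and 2. Of the 10 pluripotency markers 1 rose and 5 fell at 24h over 0h (1 and 6 with the block), and their sum was 650 to 701 at 24h against 843 to 884 at 0h. In such bulk samples fewer cells of a type and less RNA per cell cannot be told apart, and the part of this shift in the members' levels was not tested.

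Profiles were compared over the 16 arrays, which share slides and groups. The genes were chosen on these arrays, so Pearson's r between them is a description of that choice too. Over all 45 pairs r ran from 0.151 to 0.985 with a median of 0.811. Pairs of the 8 genes other than Lor and Cyth4 ran from 0.665 to 0.985. Lor with the other 9 had a median r of 0.445, but reached 0.874 with Phlda1, 0.781 with Cyth4 and 0.741 with Vgf, inside the range of the 8. Cyth4 had a median of 0.328, with 0.683 for Phlda1 and 0.628 for Vgf. The genes nearest to Lor were Arc, an immediate early gene of neurons (r = 0.976), Nab2, a corepressor of Egr factors (0.970), and Gmeb2 (0.956). Nearest to Phlda1 were Rasl11a (0.977), Plaur, the urokinase receptor (0.971), and Dusp2, an Erk phosphatase (0.969). Nearest to Vgf were Bcl2l11, a pro-apoptotic protein (0.976), Cebpd (0.971) and Fosl2 (0.967), both transcription factors.

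The late genes shared several of their nearest profiles. Akr1b8, an aldo-keto reductase, was nearest to Trf (0.992) and to Grm6 (0.976). Pdgfrl was among the 3 nearest to Trf (0.986), Grm6 (0.976) and Esam (0.972). Arap3, a GTPase-activating protein, was near Esam (0.974) and Btbd17 (0.975), and the kinase subunit Pik3cd near Esam (0.976) and Trf (0.984). Btbd17 was also near Skor1 (0.985) and Clca1 (0.977), and Grm6 near Car2, a carbonic anhydrase (0.976). Baalc was nearest to Hmga2, a chromatin protein (0.975), Perp (0.973) and Specc1 (0.971), and Insc to Sptbn4 (0.974), Pde9a (0.974) and Mcc (0.965). No gene came as close to Cyth4, whose nearest were Igfbp3 (0.908), Sox13 (0.868) and Ociad1 (0.867).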

How the data were processed

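Processed intensities were deposited by the authors in a value table and in scanner files, and per the file headers came from Agilent Feature Extraction 11.0.1.1 on an array annotated on mm9. The deposited intensity was already background- and trend-corrected, linear and unscaled between arrays; each value table column equals 1 scanner file rounded (100% of spots within 0.6%), and its medians ran from 27.3 to 44.7. The labels name the dye Cy5 and the files hold a green channel; 1 label of the 4h group reads as minutes, and hours, as in its titles, were used. Scanner flags of spots well above background, per the file headers, set detection. Log2 levels were computed from the deposited intensities, minus each array's 75th percentile over all spots but controls. Probes were named through RefSeq accessions (GRCm38.p6, 27656 of 55681 with 1 gene, 28025 with none), and 15660 of 20972 genes went into limma 3.58.1 (R 4.3.3) as a single model of 8 means with 8 residual degrees of freedom, Benjamini-Hochberg over all genes, threshold 0.05; the script was tested on simulated data. The number of arrays limits the precision. The members, families and markers were chosen with earlier results of these data known. Named were all members, the 3 genes of highest Pearson r with each, up to 3 called genes per list with the largest change, and markers below background. Same-numbered replicates deviated together in all 28 pairs of groups (r 0.328 to 0.659, median 0.527) and shared a slide, so the replicate block is printed where it changes a member's call or a count of calls. Normexp (offset 50) used the median signal and median local background of each spot, since the planned mean signal was not in the files used here. Probes below background on a whole group are given as bounds, each array's lowest well-above-background signal or the probe's own, whichever was higher. The bounds were computed on the processed signal and need not hold with normexp.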

Additional observations from a re-analysis of the deposited data

How the results depend on the processing

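Of the 10 genes, 3 were called at 0h against DMSO; the replicate block gave 5, median scaling 1, no filter on dim probes 1, and a fit of the 2 groups alone or arrays as attached to the scanner files 0. Over all genes the count of 547 (346 higher, 201 lower) became 2340 with the block, 261 with median scaling (228 higher, 33 lower), 340 with no filter, 0 in the fit of the groups alone and 6 as attached. At 2h against 0h, 2 members and 18 genes (16 higher, 2 lower) became 0 and 5 with median scaling (5 higher, 0 lower), 1 and 11 with no filter, 0 and 0 in the fit of the groups alone, and 0 and 563 as attached; the block gave 75 genes. At 2h against DMSO, 4 members (2 higher, 2 lower) and 712 genes (383 higher, 329 lower) became 7 and 2699 with the block, 2 (2 higher, 0 lower) and 189 with median scaling (121 higher, 68 lower), 0 and 0 in the fit of the groups alone, and 0 and 433 as attached. The block called 3 genes at 1h, and 7 were called at 30m as attached. The block changed no other call of a member.

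With 1 array left out, 0 members were called at 0h against DMSO (72 to 195 genes), 0 at 30m (0 to 21 genes) and 1h (0 to 9), 0 to 2 at 2h against 0h (2 to 25) and 1 to 2 at 2h against DMSO (128 to 270). The members' median change stayed at 2.64 to 3.72 at 4h, 3.88 to 5.25 at 8h and 5.22 to 5.64 at 24h against 0h, and at 3.41 to 4.12 at 24h against DMSO.

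Normexp gave medians of 1.53, 2.85 and 3.74 at 4h, 8h and 24h against 0h and 2.82 at 24h against DMSO. It lowered the 24h change by over 1.5-fold for Grm6, Vgf, Baalc, Esam, Btbd17 and Insc, and signal over background limits the size of such changes. In log2 units the change went from 8.17 to 4.59 for Grm6, 7.27 to 3.72 for Baalc and 5.51 to 3.42 for Insc. For Esam it went from 5.35 to 3.76 and for Btbd17 from 5.07 to 3.36, and the drop was smallest for Vgf.

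As attached to the scanner files the medians over 8 tested members were -0.30, 0.23, 0.49 and 0.64, and no tested member had an onset. Signs turned there for Phlda1 and Lor at 2h against 0h (-1.19 and -1.95) and against DMSO (-0.39 and -0.86). At 4h they turned for Vgf (-0.013), Phlda1 (-0.79), Lor (-1.12), Btbd17 (-0.46), Cyth4 (-0.049), Trf (-0.24) and Insc (-0.36). At 8h they turned for Phlda1 (-0.89), Lor (-2.24) and Cyth4 (-1.55), at 24h for Phlda1 (-0.48), Lor (-2.28) and Cyth4 (-1.36), and at 24h against DMSO for Lor (-1.20). That record puts arrays of different groups of the value table together; which record is right was not tested. The mean over a gene's probes changed no direction or call.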

Other observations

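Genes outside the list whose lineage markers were set beside it also moved at late times. At 24h against 0h (limma), 10.8% of all genes tested were called higher and 12.9% lower. Called higher and lower were 1 and 0 of 7 blood markers tested (2 and 1 with the block), and 2 and 0 of 7 mesoderm markers. For primitive endoderm they were 2 and 1 of 8 (2 and 2 with the block), and for fibroblasts 1 and 0 of 6 (1 and 1). For neural markers they were 0 and 2 of 9, and for endothelial markers 0 and 2 of 5. Runx1, a transcription factor of blood development, rose by 3.66 ± 0.37 at 24h against 0h (limma adjusted p = 0.00018) and Hand1, of mesoderm, by 4.64 ± 0.30 (adjusted p = 2.57e-05). Gata6, of primitive endoderm, rose by 4.77 ± 0.54 (adjusted p = 0.000308), while Lama1 of the same list fell by 1.65 ± 0.19 (adjusted p = 0.000346). Thy1, of fibroblasts and other cells, rose by 2.34 ± 0.21 (adjusted p = 0.000107). Tubb3, a neuronal tubulin, fell by 2.80 ± 0.40 (adjusted p = 0.00099), and Tek, an endothelial receptor, fell by 2.23 ± 0.36 (adjusted p = 0.00183). Of 7 trophoblast markers tested 2 rose at 24h and 0 fell (4 and 1 with the block): Cdx2 was at least 12.3-fold higher than at 0h (adjusted p = 0.00185) and Krt7 rose by 2.85 ± 0.28 (adjusted p = 0.00016). The summed levels of the other marker lists at 24h and 0h were 11.4 to 12.9 and 30.7 to 31.4 for primitive endoderm, 1.38 to 1.77 and 0.656 to 0.692 for mesoderm, 16.7 to 18.9 and 19.7 to 36.5 for trophoblast, 13.6 to 14.4 and 3.11 to 3.19 for fibroblasts, and 9.55 to 11.4 and 8.07 to 10.3 for blood. The sums are linear, so the brightest gene of a list weighs most. Mean log2 levels at 0h and 24h were 4.93 and 3.28 for Lama1, and 1.42 and 3.76 for Thy1. The next highest means at these times were 0.66 (Gata6, 24h) and -2.08 (Col1a2, 24h) in their lists. The primitive endoderm and fibroblast sums thus mainly follow Lama1 and Thy1, and no shift of either lineage is read from them. Gata6 and Pdgfra were called higher at 24h while the primitive endoderm sum fell.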
